A study of Mus musculus with 15 samples.

Results

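The 40 genes described here are Trp53, which encodes the transcription factor p53, and 39 genes that are widely listed as its transcriptional targets. They were taken by gene symbol from the annotation of the arrays, and all 40 were found, on 48 of the 55681 non-control probes and among 24336 gene symbols. They were followed in RNA of 15 mouse liver tumors, of which p53f/f mice gave 5 hepatocellular carcinomas (HCC) and p53LKO mice gave 5 HCC and 5 intrahepatic cholangiocarcinomas (ICC). HCC is a cancer of hepatocyte character and ICC one of bile duct character. The p53f/f mice carry loxP-flanked Trp53 alleles that are not recombined and stand for intact p53, and in p53LKO mice Trp53 is deleted in the liver only. The promoter that drives the deletion and the deleted exons are not given in the sources used here. All mice of the 3 groups, on a C57BL/6J background, received the liver toxin carbon tetrachloride (CCl4) for 16 weeks at 0.5 µl per g body weight, so that no tumor comes from an untreated liver. Tumors arose later in p53f/f mice, and the age at which each tumor was taken is not given in the sources used here, so that genotype and age cannot be told apart. The 5 p53f/f tumors come from 4 mice (mouse 3717 gave 2), and mice 3731, 3733, 3976 and 5283 gave both an HCC and an ICC.

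p53 is held low in unstressed cells by Mdm2, a ubiquitin ligase that marks it for destruction and that is itself a target gene of p53, which closes a feedback loop. After DNA damage or other stress p53 accumulates, binds pairs of short DNA motifs near its targets and raises transcription of genes for cell cycle arrest, apoptosis, DNA repair and metabolic adjustment. Many of these genes also respond to other factors.

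A level is given here as the log2 of the signal of a probe minus the 75th percentile of its array, so that 0 is the level of the 75th percentile and 1 unit is a 2-fold step. Levels are compared between tumors and never between genes, since each probe has its own brightness. A probe counts as well above background by the call of the scanner software, and a gene entered the test if 3 or more arrays of either group passed that call. In this text a gene rose or fell if the adjusted p of the linear model of limma, with Benjamini-Hochberg adjustment over all probes tested, was under 0.05, and it was differentially expressed if the fold change was also over 2. All 5 arrays of a group were well above background for 35 of the 40 genes in p53f/f HCC, 34 in p53LKO HCC and 35 in ICC. Of the array, 55.1 to 70.1% of spots were well above background in p53f/f HCC, 37 to 62.1% in p53LKO HCC and 42.5 to 47% in ICC. The lower values belong to the lower row of the 2 slides, which holds all ICC, no p53f/f HCC, and replicates 1 and 2 of p53LKO HCC.

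The motif that p53 binds is a decamer that reads alike on both strands, and a full site is a pair of decamers. RefSeq promoter windows of GRCm38.p6, which run from 250 bases before to 50 bases after a transcription start, were at hand for 32 of the 40 genes. A decamer of the p53 consensus without mismatch lay in a window of 12 of the 32 genes, or 37.5%, and in 9.55% of all 27025 genes. A pair of decamers at most 13 bases apart, with at most 1 mismatch in all, lay in a window of 5 of the 32 genes (15.6%), Cdkn1a, Ccng1, Bax, Polk and Gtse1, and in 1.24% of all genes. The pairs of 3 genes that the results turn on are printed to show what such a site looks like, with the decamers in capitals and 15 bases on either side, each 5′ to 3′ on the strand of the gene.
Cdkn1a: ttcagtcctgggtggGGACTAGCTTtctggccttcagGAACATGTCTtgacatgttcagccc
Ccng1: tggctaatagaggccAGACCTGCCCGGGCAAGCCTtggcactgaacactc
Bax: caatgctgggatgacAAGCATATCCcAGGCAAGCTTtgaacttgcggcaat
The stretch of Cdkn1a is chr17:29090891-29090952 on the plus strand, with no mismatch, a spacer of 12 bases and the first base of its first decamer at position -73 from the transcription start of its window. The pair in capitals is the one with the fewest mismatches. Its second decamer also forms a pair, with 1 mismatch, with the decamer that follows it without a spacer, left in lower case. In another window of Cdkn1a the best pair had 5 mismatches. The stretch of Ccng1 is chr11:40755447-40755496 on the minus strand, with 1 mismatch, no spacer and the first base of its first decamer at -195. That of Bax is chr7:45467075-45467125 on the minus strand, with 1 mismatch, a spacer of 1 base and the first base of its first decamer at -212. These are matches of letters, and binding was not measured.

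Trp53 itself checks the labels. Its level was -0.76, -1.27, -0.68, -1.07 and -1.27 in the 5 p53f/f HCC, -2.86, -3.86, -2.80, -3.20 and -2.75 in the 5 p53LKO HCC, and -4.19, -3.18, -2.31, -2.98 and -2.71 in the 5 ICC. Every p53LKO tumor lay below every p53f/f tumor, and the probe was not well above background in 1 of the 5 p53LKO HCC and in 3 of the 5 ICC. Trp53 fell 4.24-fold in p53LKO HCC (log2 difference -2.08, SE 0.24, limma adjusted p = 0.000169) and 4.18-fold in ICC against p53f/f HCC (-2.06, SE 0.32, adjusted p = 0.00101), where only 2 of the 5 ICC were well above background and the size of the fall is therefore less sure. Between ICC and HCC of p53LKO mice its level differed by 0.02, with a 95% interval from -0.74 to 0.78, a comparison of values mostly close to background. The array has 1 probe for Trp53, whose sequence is shown because of where the array annotation puts it.
Trp53 probe: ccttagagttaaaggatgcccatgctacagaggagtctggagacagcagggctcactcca
In the mm9 annotation of the array this probe lies at chr17:54560025-54560084, whereas RefSeq has Trp53 on chromosome 11 and a pseudogene, Trp53-ps, on chromosome 17. Whether the probe lies in the deleted part of the gene is not known here, and neither is the share of its signal that comes from the pseudogene. The tumors are whole tissue with blood vessel, immune and connective tissue cells, in which a deletion of Trp53 is not stated. In such bulk samples fewer cells of a type and less RNA per cell cannot be told apart.

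In HCC, loss of p53 went with lower levels of the whole feedback group and of several pro-apoptotic targets, while Cdkn1a and most other targets did not pass the test. Of the 38 genes tested, 12 fell in p53LKO HCC, or 31.6%, where 15.7% of all 17848 genes tested fell, and 7 of the 12 were differentially expressed (18.4%, against 10.8% of all genes). One gene, Rrm2b, rose (13.8% of all genes rose), and no member was differentially expressed upwards (5.19% of all genes). In 10 of the 38 genes every p53LKO HCC lay below every p53f/f HCC (26.3%), as in 11.3% of all genes, and in none did every one lie above (8.24% of all genes). Trp53, the deleted gene, is counted among the 12, the 7 and the 10. The median difference of the 38 genes was -0.25 on the log2 scale and that of all genes was 0.06. These values depend on the scaling of the arrays, as given below. Under median or spike-in scaling 4 of the 12 falls passed the adjusted p, and the median of the members was above 0. Eda2r, a receptor of the ectodysplasin family, and Rprm, an inducer of arrest before mitosis, were too dim to be tested.

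**Figure D1:**
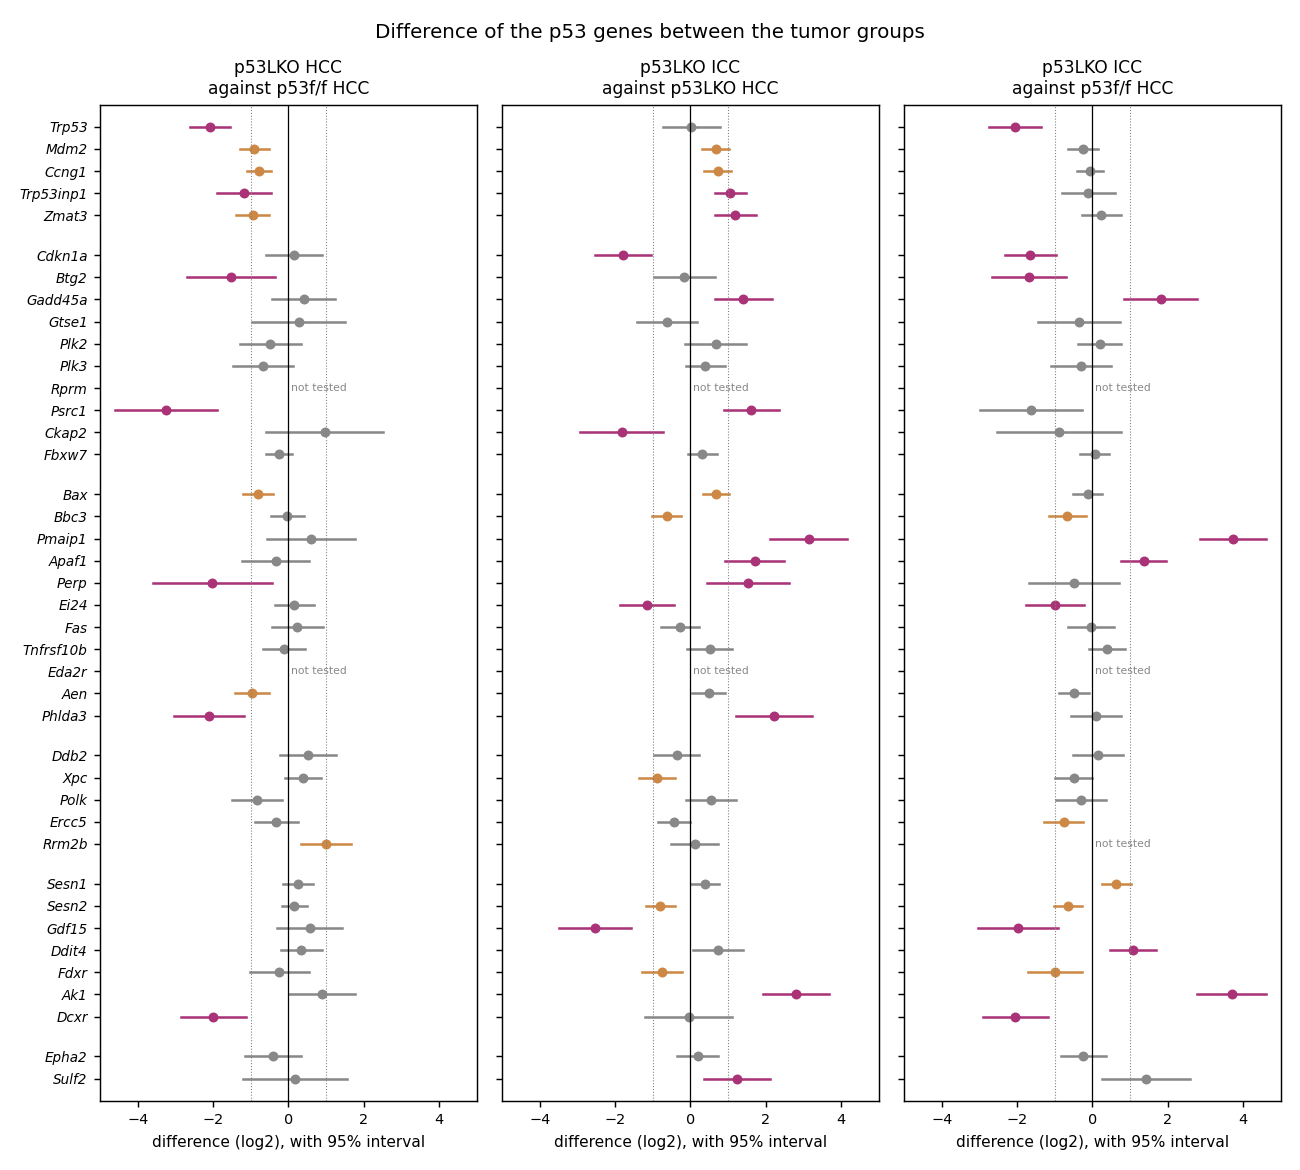
Difference in log2 level of each of the 40 genes, grouped by role, for the 3 comparisons of tumor groups (points: limma estimates from 5 against 5 tumors; lines: 95% intervals; dotted lines: a 2-fold change). Purple genes were differentially expressed, orange genes passed the adjusted p alone and grey genes did not pass it; 12 genes fell and 1 rose in p53LKO HCC against p53f/f HCC, with 38 tested.

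All 5 genes of p53 and its feedback fell in p53LKO HCC (15.7% of all genes fell), each without overlap between the groups (11.3% of all genes). Trp53 is the deleted gene itself, so that its fall is no result about the targets. Mdm2 stood at 3.63, 3.62, 4.21, 3.58 and 3.73 in p53f/f HCC and at 2.77, 3.00, 3.11, 2.64 and 2.69 in p53LKO HCC, a fall of 1.88-fold (log2 difference -0.91, SE 0.18, limma adjusted p = 0.003). Ccng1, cyclin G1, which acts on Mdm2 through a phosphatase, stood at 0.89, 1.10, 0.86, 0.99 and 0.88 against 0.24, -0.10, 0.12, 0.14 and 0.40, a fall of 1.72-fold (-0.78, SE 0.15, adjusted p = 0.0025). The tumors of each group lay close together in both genes, apart from p53f/f HCC replicate 3, which was the highest for Mdm2. Zmat3, an RNA-binding zinc finger protein, stood at 0.31, 0.83, 0.96, 0.93 and 0.71 against -0.58, -0.01, -0.50, -0.07 and 0.16 and fell 1.93-fold (-0.95, SE 0.20, adjusted p = 0.00488). Trp53inp1, a stress-induced nuclear protein that promotes p53 activity, fell over 2-fold by its brighter probe, from 3.01, 2.25, 2.11, 3.81 and 3.38 to 1.96, 2.07, 1.60, 1.74 and 1.32 (2.25-fold lower, -1.17, SE 0.32, adjusted p = 0.0183). Its p53f/f tumors were more spread than its p53LKO tumors, and without p53f/f HCC replicate 4 its difference was -0.95, under 2-fold. Its second probe, well above background on all 10 arrays, fell 1.84-fold without overlap (-0.88, adjusted p = 0.00574).

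**Figure D2:**
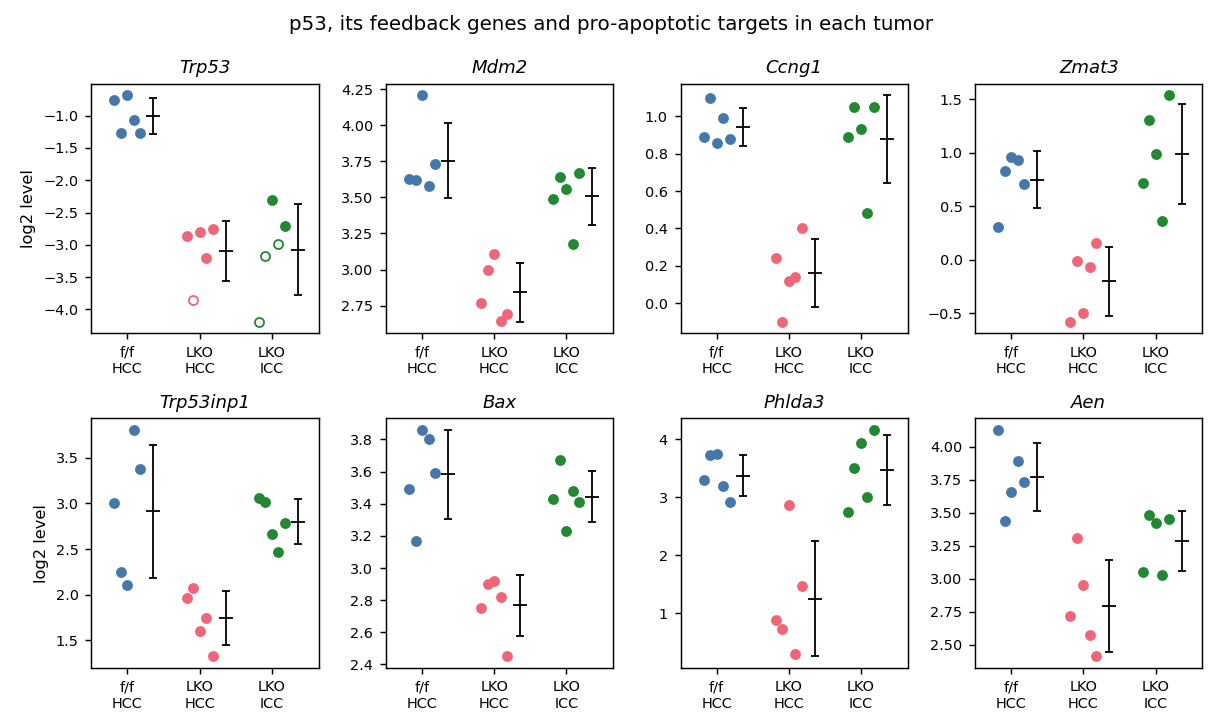
Log2 level (signal minus the 75th percentile of the array) of Trp53, 4 feedback targets and 3 pro-apoptotic targets in each of the 5 tumors of the 3 groups (open circles: not well above background; bars: mean and SD). Mdm2 lies between 2.64 and 3.11 in p53LKO HCC, below all tumors of the other groups.

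Among the targets for cell cycle arrest and mitosis, Cdkn1a, which encodes the cyclin-dependent kinase inhibitor p21, did not follow this order. It stood at 0.78, 1.37, 2.13, 1.37 and 1.05 in p53f/f HCC and at 1.14, 1.00, 1.74, 1.01 and 2.48 in p53LKO HCC. The groups overlapped throughout, and the difference of 0.14 (SE 0.34, 95% interval -0.60 to 0.88, limma adjusted p = 0.779) was below 0 without p53LKO HCC replicate 5 (-0.11) and with quantile normalization (-0.01). Of the 9 genes of this role that were tested, 2 fell (22.2%, against 15.7% of all genes) and none rose (against 13.8%). Psrc1, a microtubule-binding protein of the mitotic spindle, had the largest difference of all members, from 0.76, -1.66, -1.14, 1.89 and 0.58 to -4.04, -3.12, -2.89, -3.27 and -2.50 (9.54-fold lower, -3.25, SE 0.61, adjusted p = 0.00253). It was near background in the p53LKO HCC, with 2 of the 5 tumors not well above it. Btg2, an antiproliferative regulator of transcription, stood at 3.59, 0.99, 1.94, 3.35 and 2.28 against -0.29, 1.73, 1.64, 0.51 and 0.90. The groups of Btg2 overlapped, and its fall of 2.89-fold (-1.53, SE 0.53, adjusted p = 0.0467) was lost without p53f/f HCC replicate 1, 3, 4 or 5 or without p53LKO HCC replicate 1, 4 or 5 (adjusted p 0.0522 to 0.105). Gadd45a, Gtse1, Plk2, Plk3, Ckap2 and Fbxw7 did not pass the test, with differences from -0.68 for Plk3 to 0.96 for Ckap2. A second probe of Fbxw7, the substrate receptor of a ubiquitin ligase for cyclin E, was lower in p53LKO HCC (-1.15, adjusted p = 0.00218) where the brighter one differed by -0.26.

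Of the 10 tested genes of apoptosis and death receptors, 4 fell (40%, against 15.7% of all genes) and none rose (against 13.8%). Bax, which opens pores in the outer mitochondrial membrane, stood at 3.49, 3.17, 3.86, 3.80 and 3.59 in p53f/f HCC and at 2.75, 2.90, 2.92, 2.82 and 2.45 in p53LKO HCC (1.76-fold lower, -0.81, SE 0.18, adjusted p = 0.00574). Phlda3, an inhibitor of the survival kinase Akt, went from 3.29, 3.72, 3.75, 3.19 and 2.91 to 0.89, 0.73, 2.87, 0.31 and 1.48 (4.34-fold lower, -2.12, SE 0.42, adjusted p = 0.00359). Replicate 3 of p53LKO HCC stood well above the other 4 and just under the lowest p53f/f HCC. Aen, an apoptosis-enhancing nuclease, fell 1.97-fold (-0.98, SE 0.21, adjusted p = 0.00498), and its second probe was also lower (-1.08, adjusted p = 0.00316), although the array annotation places both probes on chromosome 4 and RefSeq has the gene on chromosome 7. Perp, a membrane protein of desmosomes, stood at 5.18, 2.09, 5.38, 4.27 and 5.08 against 3.62, 1.05, 2.52, 1.17 and 3.54. With overlapping groups, its fall of 4.06-fold (-2.02, SE 0.71, adjusted p = 0.0497) was lost without p53f/f HCC replicate 1, 3, 4 or 5 or without p53LKO HCC replicate 2, 3 or 4 (adjusted p 0.0758 to 0.109). The BH3-only proteins Bbc3 (Puma) and Pmaip1 (Noxa), the apoptosome scaffold Apaf1, the endoplasmic reticulum protein Ei24 and the death receptors Fas and Tnfrsf10b did not pass the test, with differences from -0.34 to 0.60. For Bbc3 the interval of the difference ran from -0.47 to 0.41, which leaves no room for a 2-fold change.

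In the remaining roles few genes differed between the HCC groups. By their brighter probes none of the 5 DNA repair genes fell (against 15.7% of all genes). Rrm2b, the p53-inducible subunit of ribonucleotide reductase, was the 1 that rose (20%, against 13.8%), by 1.98-fold (0.99, SE 0.30, limma adjusted p = 0.0279). Its probe was well above background in 2 of the 5 p53f/f HCC, its annotated position is on chromosome 13 where RefSeq has the gene on chromosome 15, and the rise was lost without any 1 of p53f/f HCC replicates 1, 3 and 4 and p53LKO HCC replicates 1, 4 and 5 (adjusted p 0.0509 to 0.0616). The rise was also lost with the 2 tumors of mouse 3717 averaged (adjusted p = 0.0512) and with the slide as a block (0.0568). The same held with the row as a block (0.0883) and in the upper row of the slides alone (0.0699). The damage sensors Ddb2 and Xpc, the translesion polymerase Polk and the repair nuclease Ercc5 differed by 0.51, 0.39, -0.84 and -0.33 and did not pass the test, although Polk missed it narrowly (adjusted p = 0.0535). A dimmer second probe of Polk, well above background in 3 of the 5 p53LKO HCC, fell 1.77-fold without overlap (-0.82, adjusted p = 0.02). A dim second probe of Ercc5 was well above background in all p53f/f HCC and in no p53LKO HCC and was at least 1.92-fold lower there (adjusted p = 0.00416). Of the 7 genes of metabolism, redox and stress, only Dcxr, a dicarbonyl and xylulose reductase, fell (14.3%, close to the 15.7% of all genes). It went from 2.67, 2.18, 2.42, 2.40 and 2.16 to 0.84, 1.63, 0.38, -0.84 and -0.19, without overlap (4.01-fold lower, -2.0, SE 0.39, adjusted p = 0.0031). Gdf15, a secreted stress hormone, the mTORC1 restraints Sesn1, Sesn2 and Ddit4, the mitochondrial ferredoxin reductase Fdxr and the adenylate kinase Ak1 did not pass the test, with differences from -0.24 for Fdxr to 0.90 for Ak1. Neither of the cell surface genes Epha2, a receptor tyrosine kinase, and Sulf2, a heparan sulfate sulfatase, passed it (-0.42 and 0.17).

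How far these falls reach depends on the scaling of the arrays, because the median of all genes moved with it. Scaled by the median of all probes, the median difference of all genes was 0.67, and scaled by the spike-in controls 0.80, in place of 0.06. The median of the 38 members was then 0.35 and 0.49, so its sign turned, and of the members past the adjusted p, 15 and 18 in all, most then rose. These scalings shift all genes of an array alike, so that the distance of the members' median from that of all genes is -0.31 in each by construction. It was -0.37 with quantile normalization and -0.22 with normexp background correction. All 12 genes that fell kept a negative difference under both scalings, but under each only 4 of them passed the adjusted p, Trp53, Psrc1, Phlda3 and Dcxr, and only 2 were without overlap, Trp53 and Psrc1. Under spike-in scaling the difference of Mdm2 was -0.18, that of Ccng1 -0.05 and that of Bax -0.08, against a shift of all genes of 0.80. The falls of the feedback group are therefore given relative to the other genes of the array. Within the upper row of the slides alone, which leaves out p53LKO HCC replicates 1 and 2, all 12 differences stayed negative and 10 passed the adjusted p, Btg2 and Perp being the 2 that did not. On slide 1 alone and on slide 2 alone all 12 were negative as well, with 2 and 1 past the adjusted p in these small sets. With the 2 tumors of mouse 3717 averaged, 10 of the 12 passed it, and Btg2 (0.0861) and Perp (0.0917) did not.

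**Figure D3:**
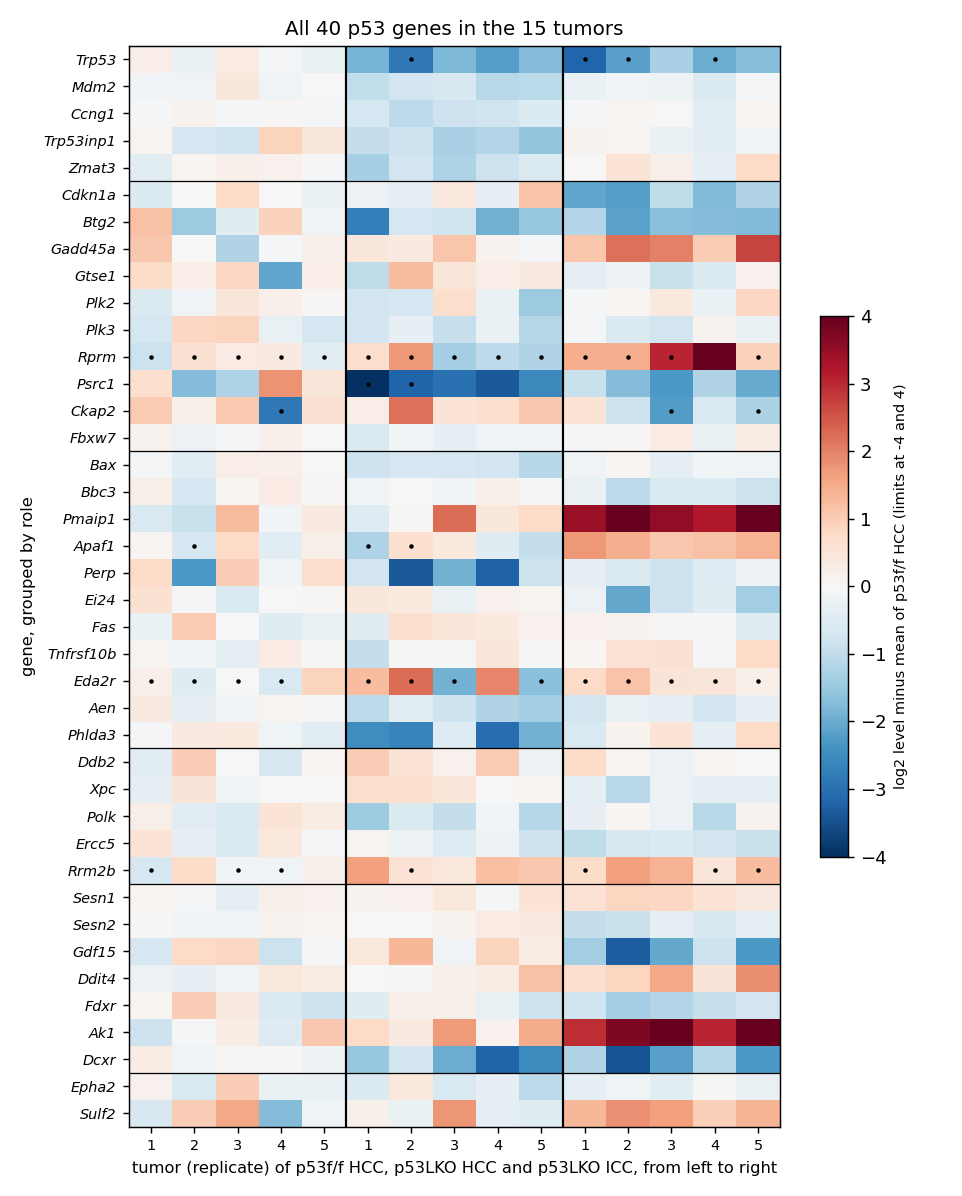
Log2 level of the 40 genes in the 15 tumors, minus the mean of the 5 p53f/f HCC of the same gene (red: higher; blue: lower; colours limited at -4 and 4; black dots: not well above background). The feedback genes at the top are blue over the 5 p53LKO HCC and near white over the 5 ICC, except Trp53, which is blue in both.

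The comparison of ICC with HCC of p53LKO mice asks how the same genes differ between the tumor types that lack p53, and it shares the p53LKO HCC arrays with the comparison above. The ICC had higher levels of 4 feedback genes, Pmaip1, Phlda3 and Ak1, and lower levels of Cdkn1a, Gdf15 and Ei24. Of the 38 genes tested, 13 rose (34.2%, against 18.5% of 16962 genes) and 8 fell (21.1%, against 29.1%). Of these, 10 rose over 2-fold (26.3%, against 13.2%) and 4 fell over 2-fold (10.5%, against 15.2%). The groups did not overlap upwards in 9 genes (23.7%, against 10.9%) and downwards in 5 (13.2%, against 19.9%). The median difference of the 38 genes was 0.39 and that of all genes -0.17. All 13 rises and 8 falls kept their sign under every scaling. Under median scaling, where the median of all genes was -0.52, 8 of the 13 rises passed the test and 3 were without overlap, and under spike-in scaling 11 and 3. Of the 8 falls 5 passed under spike-in scaling, and 4 with the percentile taken over probes above background on all arrays, where the median of all genes was 0.20.

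In ICC, 4 of the 5 feedback genes rose (80%, against 18.5% of all genes), each without overlap (10.9% of all genes), and Trp53 did not pass the test. Mdm2 stood at 3.49, 3.64, 3.56, 3.18 and 3.67 in the 5 ICC, above every p53LKO HCC (1.59-fold, 0.67, SE 0.16, limma adjusted p = 0.00772). Ccng1 stood at 0.89, 1.05, 0.93, 0.48 and 1.05, a rise of 1.65-fold (0.72, SE 0.17, adjusted p = 0.00586). Zmat3 rose 2.28-fold to 0.72, 1.31, 0.99, 0.36 and 1.54 (1.19, SE 0.25, adjusted p = 0.00353), and Trp53inp1 2.09-fold to 3.06, 3.02, 2.66, 2.47 and 2.79 (1.06, SE 0.19, adjusted p = 0.00155). In these 4 genes p53LKO HCC was the lowest group, and the levels of ICC overlapped those of p53f/f HCC. With the mouse as a replicate block, which sets the tumors of 1 mouse against each other, the rise of Mdm2 was 0.71 at an adjusted p of 0.0528. With the slide row as a block it was 0.62 at 0.0636. Without p53LKO HCC replicate 5 or ICC replicate 1 the rise of Trp53inp1 was 0.96 or 1.00, no longer over 2-fold, and its second probe rose 1.39-fold with overlap (0.47, adjusted p = 0.0356).

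Of the 10 tested apoptosis genes 5 rose (50%, against 18.5% of all genes) and 2 fell in ICC (20%, against 29.1%). Pmaip1 had the largest rise of all members, from -0.96, -0.39, 1.81, 0.01 and 0.35 in p53LKO HCC to 3.00, 3.54, 3.12, 2.77 and 4.06 in ICC (8.79-fold, 3.14, SE 0.46, limma adjusted p = 0.000507). Phlda3 reached 2.75, 3.50, 3.93, 3.00 and 4.16 (4.64-fold, 2.21, SE 0.46, adjusted p = 0.00338), a range in which only replicate 3 of p53LKO HCC overlapped. Apaf1 rose 3.26-fold without overlap (1.71, SE 0.35, adjusted p = 0.00316), and its probe was well above background in 3 of the 5 p53LKO HCC. Bax stood at 3.43, 3.67, 3.23, 3.48 and 3.41, above every p53LKO HCC (1.60-fold, 0.68, SE 0.15, adjusted p = 0.00541). Perp rose 2.89-fold (1.53, SE 0.50, adjusted p = 0.0277), which was lost without p53LKO HCC replicate 2 or 4 or ICC replicate 1 (adjusted p 0.0532 to 0.0586). In the other direction Bbc3 fell 1.55-fold without overlap (-0.63, SE 0.17, adjusted p = 0.013), and Ei24 fell 2.24-fold (-1.16, SE 0.32, adjusted p = 0.0145), or by 0.90 on the log2 scale without ICC replicate 2. With the mouse as a block 4 of these genes no longer passed, Bax (0.59, adjusted p = 0.0734), Perp (1.83, 0.0518), Bbc3 (-0.67, 0.0924) and Ei24 (-1.30, 0.0573). The receptors Fas and Tnfrsf10b differed by -0.28 and 0.51 and did not pass the test. Of the 2 probes of Aen the brighter did not pass it (0.49, adjusted p = 0.066) and the other did (0.51, 0.0478).

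Cdkn1a stood at -0.73, -0.85, 0.33, -0.44 and 0.14 in ICC, below every HCC of either genotype. It was 3.45-fold lower than in p53LKO HCC (-1.79, SE 0.34, limma adjusted p = 0.00203). A dim second probe of Cdkn1a, upstream of the first, was well above background in none of the ICC and did not differ past the test (0.04, adjusted p = 0.922). Ckap2, a spindle protein of dividing cells, fell 3.56-fold (-1.83, SE 0.50, adjusted p = 0.0132) with overlapping groups, at an adjusted p of 0.0537 with the mouse as a block. The rise of Psrc1 was 3.08-fold without overlap (1.62, SE 0.33, adjusted p = 0.00316). Gadd45a, a growth arrest protein of DNA damage, rose 2.66-fold with overlapping groups (1.41, SE 0.35, adjusted p = 0.00795). Btg2, Gtse1, Plk2, Plk3 and Fbxw7 did not pass the test.

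Gdf15 fell from 3.89, 4.79, 3.32, 4.37 and 3.75 in p53LKO HCC to 2.08, 0.16, 1.41, 2.61 and 1.17 in ICC (5.8-fold, -2.54, SE 0.43, limma adjusted p = 0.00117). Sesn2 and Fdxr fell by less, 1.75-fold (adjusted p = 0.00411) and 1.69-fold (adjusted p = 0.0248, lost without p53LKO HCC replicate 2 or ICC replicate 2 or 3 at adjusted p 0.0543 to 0.0622). Xpc fell 1.84-fold without overlap (adjusted p = 0.00827). Ak1 rose from 0.09, -0.36, 0.98, -0.56 and 0.76 to 2.24, 3.01, 3.44, 2.32 and 3.94 (7.0-fold, 2.81, SE 0.40, adjusted p = 0.000424). Sulf2 rose 2.37-fold (1.25, SE 0.40, adjusted p = 0.0253), which was lost without p53LKO HCC replicate 2, 4 or 5 or ICC replicate 2 or 3 (adjusted p 0.0521 to 0.0589). Within the lower row of the slides, with 5 ICC and 2 HCC, all 13 rises and all 8 falls kept their sign, and 10 of the 13 and 3 of the 8 passed the adjusted p. With the row as a block over all 10 tumors, 8 of the 13 and 5 of the 8 passed it, and Gadd45a (0.054) and Bax (0.0534) were among those that did not. With the mouse as a block over the 4 mice that gave both tumor types, all kept their sign, 9 of the 13 and 4 of the 8 passed it, and 2 rather than 4 genes fell over 2-fold, Cdkn1a and Gdf15. Under that block Sesn2 (adjusted p = 0.0698) and Sulf2 (0.091) were lost too, and Ddit4 passed the test as higher (1.08, adjusted p = 0.0452; without the block 0.73, 0.073).

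**Figure D4:**
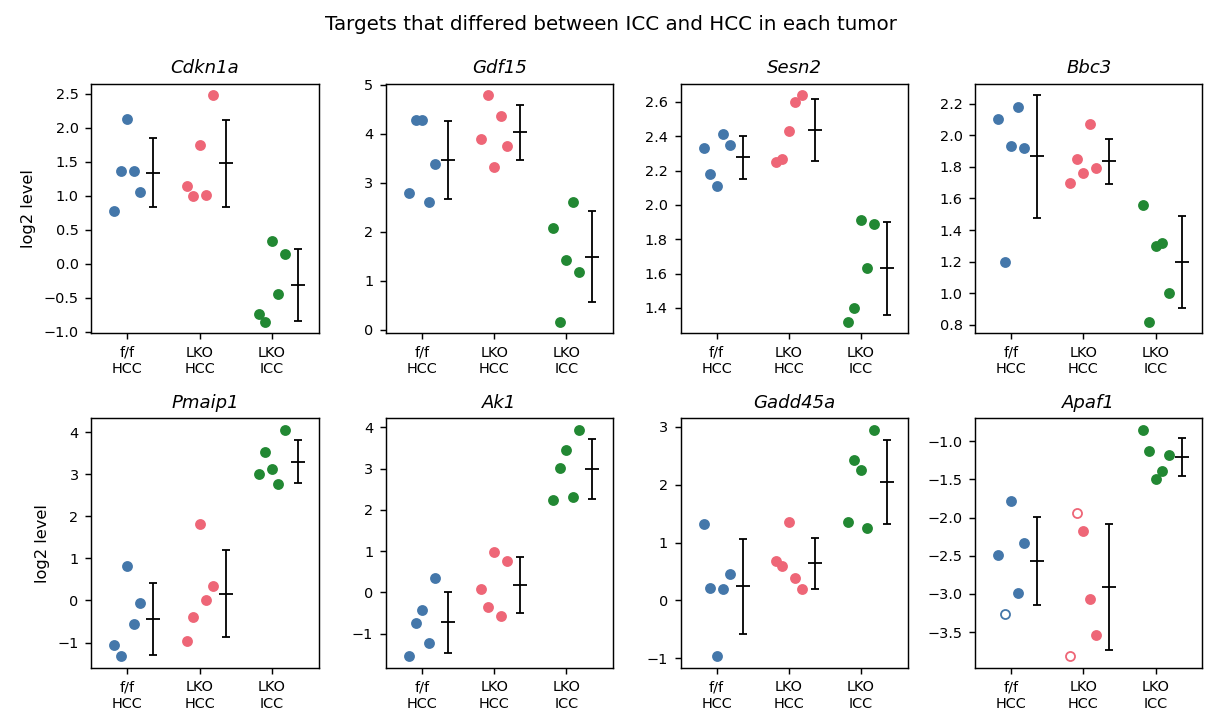
Log2 level (signal minus the 75th percentile of the array) of 8 target genes in each of the 5 tumors of the 3 groups (open circles: not well above background; bars: mean and SD). The ICC lie lowest for Cdkn1a and Sesn2 and highest for Pmaip1 and Ak1, where they do not overlap either group of HCC.

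Set against p53f/f HCC, the ICC had lower levels of Trp53, Cdkn1a, Gdf15 and Dcxr and higher levels of Pmaip1 and Ak1, and the 4 feedback targets did not pass the test. Of the 37 genes tested, 10 fell (27.0%, against 20.7% of 17778 genes) and 6 rose (16.2%, as for all genes), of which 6 fell over 2-fold (16.2%, against 11.9%) and 5 rose over 2-fold (13.5%, against 10.8%). The groups did not overlap downwards in 4 genes (10.8%, against 14.5%) and upwards in 5 (13.5%, against 12.8%), shares near those of all genes. The median difference was -0.25 for the members and -0.17 for all genes. Trp53, the deleted gene, is counted among the falls, those over 2-fold and those without overlap. Under median scaling all 10 falls kept their sign and 5 passed the test, and under spike-in scaling, which moved the median of all genes to 0.57, 8 kept their sign and 2, Trp53 and Dcxr, passed. All 6 rises passed under both. All ICC lay in the lower row of the slides and all p53f/f HCC in the upper, so that row and group cannot be told apart here.

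The feedback targets of ICC and p53f/f HCC differed by -0.25 for Mdm2 (95% interval -0.64 to 0.15, limma adjusted p = 0.301), -0.06 for Ccng1 (-0.42 to 0.29), -0.11 for Trp53inp1 (-0.81 to 0.59) and 0.24 for Zmat3 (-0.29 to 0.77). None passed the test, and each of these intervals leaves no room for a 2-fold change. The same held for Bax at -0.13 (-0.52 to 0.25) and Phlda3 at 0.10 (-0.56 to 0.75). These are relative levels: under spike-in scaling the difference of Mdm2 was 0.50, with the median of all genes at 0.57. Trp53 was 4.18-fold lower, as given above.

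The genes that differed over 2-fold from p53f/f HCC were of several roles. Cdkn1a was 3.14-fold lower in ICC without overlap (-1.65, SE 0.31, limma adjusted p = 0.0028), and its dim second probe, well above background in no ICC, did not pass (adjusted p = 0.386). Gdf15 was 3.93-fold lower (-1.98, SE 0.49, adjusted p = 0.0108), with 1 ICC at 2.61 just above the lowest p53f/f HCC at 2.60. Dcxr stood at 1.16, -1.08, 0.18, 1.24 and 0.06 in ICC, 4.15-fold lower without overlap (-2.05, SE 0.39, adjusted p = 0.00328), and differed by -0.05 between the p53LKO groups. Btg2 was 3.24-fold lower (-1.69, SE 0.45, adjusted p = 0.0146) with overlap. Ei24 was 2.0-fold lower (-1.0, SE 0.35, adjusted p = 0.0463), which was lost without p53f/f HCC replicate 1, 2, 4 or 5 or ICC replicate 2, 3 or 5 (adjusted p 0.0679 to 0.101). Bbc3 (-0.67, adjusted p = 0.0405), Sesn2 (-0.65, 0.0152), Ercc5 (-0.76, 0.0291) and Fdxr (-1.0, 0.0345) fell by less than 2-fold, with Bbc3 and Sesn2 at 0.08 and 0.10 under spike-in scaling. Leaving out 1 tumor ended the call of Bbc3 in 8 of 10 cases, of Fdxr in 6 and of Ercc5 in 4 (adjusted p 0.0514 to 0.0938). With the 2 tumors of mouse 3717 averaged, 7 of the 10 falls passed, and Ei24 (adjusted p = 0.0809), Bbc3 (0.0809) and Ercc5 (0.0531) did not. With the slide as a block all 10 stayed negative and 4 passed, and Btg2 (adjusted p = 0.122), Gdf15 (0.0968), Ei24 (0.293), Bbc3 (0.231), Ercc5 (0.107) and Fdxr (0.302) did not. Psrc1 differed by -1.63 and did not pass the test (adjusted p = 0.0611). Aen did not pass by its brighter probe (-0.48, 0.0615) and did by the other (-0.57, 0.0422). The second probe of Ercc5, well above background in no ICC, did not pass (0.0528).

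Upwards, Pmaip1 was 13.3-fold (3.74, SE 0.40, limma adjusted p = 0.000135) and Ak1 13.1-fold higher in ICC than in p53f/f HCC (3.71, SE 0.42, adjusted p = 0.00018), both without overlap. In both genes the HCC of the 2 genotypes overlapped. Gadd45a was 3.50-fold higher (1.81, SE 0.44, adjusted p = 0.00999) with overlap and Apaf1 2.58-fold higher without it (1.37, SE 0.27, adjusted p = 0.00392). Ddit4 stood at 3.88, 4.04, 4.70, 3.71 and 5.04 against 2.96, 2.86, 3.06, 3.61 and 3.49, a rise of 2.11-fold without overlap (1.08, SE 0.28, adjusted p = 0.0145). Without p53f/f HCC replicate 2 or ICC replicate 3 or 5 it was 0.99, 0.97 or 0.89, under 2-fold. Sesn1, a relative of Sesn2, rose 1.56-fold without overlap (0.64, SE 0.18, adjusted p = 0.0175). With the slide as a block Gadd45a (1.47, adjusted p = 0.103), Ddit4 (0.82, 0.143) and Sesn1 (0.55, 0.135) no longer passed. A dim second probe of Polk, the translesion polymerase, was well above background in all 5 p53f/f HCC and in 0 of the 5 ICC. It passed the test as lower in ICC (adjusted p = 0.00145), but lay too near background for a fold, and the brighter probe differed by -0.30.

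Genes around p53 were followed as lists beside the members. Of 20 regulators and partners of p53, 1 fell (5%, against 15.7% of all genes) and 3 rose (15%, against 13.8%) in p53LKO HCC against p53f/f HCC, none over 2-fold, with a median difference of 0.28. The one that fell was Mdm4, the partner of Mdm2 in holding p53 inactive (-0.67, adjusted p = 0.032), and those that rose were the ubiquitin ligases Rchy1 (0.74, 0.00634) and Rfwd2 (0.76, 0.00406) and the acetyltransferase Kat5 (0.41, 0.0489). In ICC against p53LKO HCC, 2 of the 20 fell over 2-fold (10%, against 15.2% of all genes) and 1 rose (5%, against 13.2%). Against p53f/f HCC 1 fell over 2-fold (5%, against 11.9%) and 2 rose (10%, against 10.8%). Among those that rose was Cdkn2a, whose Arf product blocks Mdm2, higher in ICC than in p53LKO HCC (1.48, adjusted p = 0.00903) and than in p53f/f HCC (2.83, adjusted p = 0.0124). Of 20 further target genes on the array, 3 fell over 2-fold in p53LKO HCC, the glutaminase Gls2 (-1.28, adjusted p = 0.0287), the cytokine Lif (-1.26, adjusted p = 0.0277, with 2 of the 5 p53LKO HCC well above background) and the repair methyltransferase Mgmt (-2.01, adjusted p = 0.0014), or 15% where 10.8% of all genes did. The ferrireductase Steap3 rose over 2-fold (1.02, adjusted p = 0.0372), or 5% where 5.19% of all genes did, and the death agonist Bid rose by less (0.98, adjusted p = 0.00479). Of the 20 differences 12 were above 0. Their median was 0.33, where that of all genes was 0.06 and that of the 38 members -0.25. In ICC against p53LKO HCC, 8 of 19 such genes fell over 2-fold (42.1%, against 15.2% of all genes), among them Bid (-2.21, adjusted p = 2.78e-05), and 2 rose (10.5%, against 13.2%), the autophagy regulator Dram1 (5.78, adjusted p = 2.47e-05) and Thbs1, thrombospondin-1 (3.88, adjusted p = 6.97e-05). Their median difference was -0.88, where that of the 38 members was 0.39. Of 15 tested mitotic genes that p53 represses through the DREAM complex, none passed the test in p53LKO HCC against p53f/f HCC, with 14 differences above 0 and a median of 0.74. Of the 12 genes of the integrated stress response, which shares targets such as Gdf15, Sesn2 and Ddit4 with p53, 1 rose over 2-fold in p53LKO HCC (8.33%, against 5.19%). In ICC against p53LKO HCC 4 fell (33.3%, against 15.2%) and 2 rose over 2-fold (16.7%, against 13.2%). Of those, Trib3, a pseudokinase, fell by 2.15 on the log2 scale (adjusted p = 0.000106).

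The cell types of the tumors moved with the ICC comparisons. The summed level of 10 hepatocyte markers, on a linear scale, was 2190 to 3840 in p53f/f HCC, 1780 to 2420 in p53LKO HCC and 203 to 1240 in ICC, with all 10 markers well above background in every tumor. That of 10 cholangiocyte markers was 5.60 to 31.3, 7.56 to 12.1 and 68.4 to 146, among them Krt19 (4.67 on the log2 scale above p53LKO HCC, adjusted p = 0.000306) and Epcam, which was well above background in all ICC and no p53LKO HCC (at least 93.9-fold higher, adjusted p = 1.78e-05). Of the 9 cholangiocyte markers tested, 4 were over 2-fold higher in ICC than in p53LKO HCC (44.4%, against 13.2% of all genes). None was over 2-fold lower, but 3 differences were below 0, and the median was 0.67. The sums of the hepatocyte and cholangiocyte lists bear out the labels HCC and ICC. The summed level of 9 stellate cell and fibroblast markers was 31.4 to 114 in p53f/f HCC, 72.2 to 237 in p53LKO HCC and 459 to 809 in ICC. That of 7 macrophage markers was 41 to 71.5, 72.9 to 132 and 76.9 to 113. Of the 9 stellate cell and fibroblast markers 5 were over 2-fold higher in ICC than in p53LKO HCC (55.6%, against 13.2% of all genes), and of the 7 macrophage markers 1 was (14.3%). The connective tissue list was thus highest in the group in which Mdm2, Ccng1, Bax and Zmat3 were higher than in p53LKO HCC, while the Trp53 probe did not differ there past the test. The part of these cells in the levels of the target genes was not tested. Between the HCC groups the ranges of the stellate cell and hepatocyte lists overlapped and those of the macrophage list did not. The macrophage list was higher in p53LKO HCC, in which the feedback genes were lower. The 6 neutrophil markers did not overlap either, at 8.31 to 17.7 in p53f/f HCC and 26.3 to 75.7 in p53LKO HCC, and reached 7.79 to 73.1 in ICC. The 8 T and B cell markers were highest in p53f/f HCC replicate 3, at 627 where the other 14 tumors had 11.8 to 156, and that tumor also had the highest Mdm2. In ICC that sum was 11.8 to 19.5, below every HCC. The sum follows the brightest markers, and single markers of this list went both ways. Of the 8, 4 were over 2-fold higher in ICC than in p53LKO HCC (50%, against 13.2% of all genes) and 1 was lower (12.5%, against 15.2%). Their median difference was 0.85. The 5 red cell markers were at 29.7 to 294 in p53f/f HCC, 44.5 to 136 in p53LKO HCC and 18.1 to 39.1 in ICC, and the 7 endothelial markers at 30.2 to 56.3, 27.3 to 44.3 and 11.3 to 35.7, so that the red cell list did not overlap between the p53LKO groups. Of the 7 endothelial markers 2 fell over 2-fold in p53LKO HCC against p53f/f HCC (28.6%, against 10.8% of all genes), Stab2 (-1.17, adjusted p = 0.0274) and Tek (-1.06, adjusted p = 0.0087). Of the 7 macrophage markers 1 rose over 2-fold there (14.3%, against 5.19% of all genes), and of the 5 neutrophil markers tested 2 did (40%). The part of these cell types in the levels of the members was not tested.

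**Figure D5:**
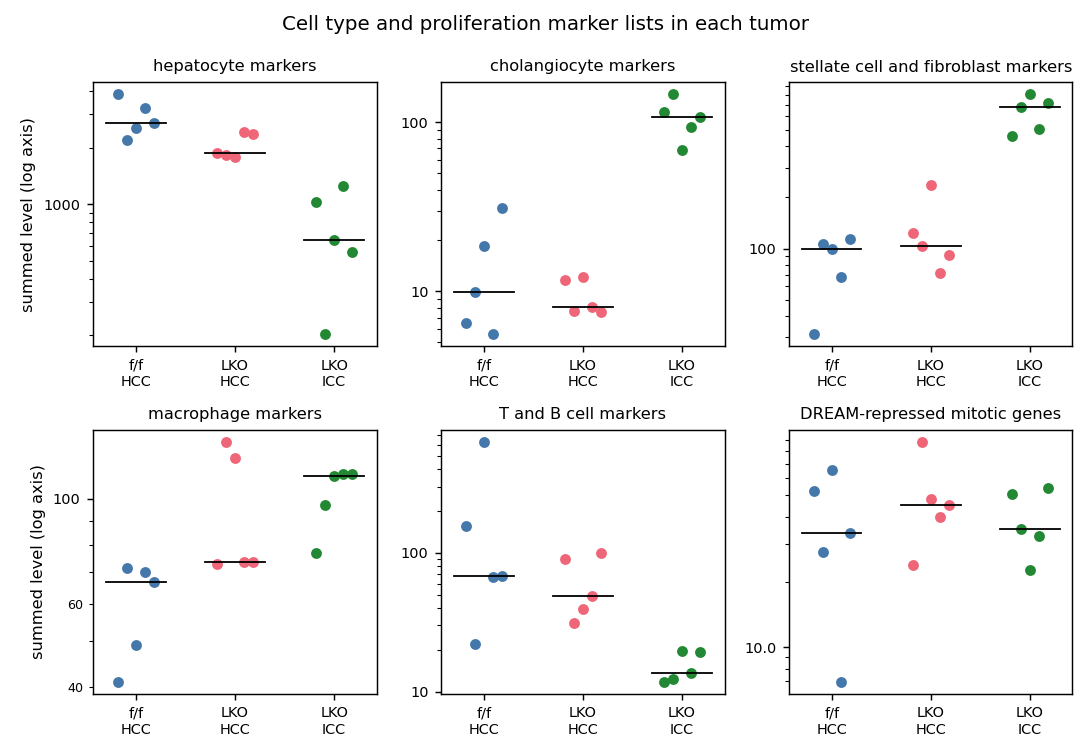
Summed level of 5 cell type marker lists and of the DREAM-repressed mitotic genes in each of the 5 tumors of the 3 groups (points; linear sums of signal over the 75th percentile of the array, on a log axis; bars: medians). The stellate cell and fibroblast list lies between 459 and 809 in ICC and at most at 237 in HCC.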

How the data were processed

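RNA of 15 tumors was hybridised to 1-colour Agilent arrays, 1 tumor to an array. The deposited scanner files were made by the authors with Agilent Feature Extraction 10.7.3.1, as the submitters' notes give it, and hold the background-subtracted intensity of each spot on a linear scale. The authors also deposited a log2 table of the same arrays, whose columns correlate at 1 with the levels rebuilt here and whose columns appear to be centred per gene, over the HCC arrays for HCC and over the p53LKO arrays for ICC, as inferred from the values. It served only as an alternative for the HCC comparison, and its scaling and centring are not given in the sources used here. For arrays the number of tumors limits the precision, and depth has no counterpart.

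Control spots were left out. Spots of a probe were averaged without the flagged ones, or over all its spots where each was flagged. Log2 intensity minus the 75th percentile of non-control probes was taken per array. A probe was well above background where at least a share of 0.5 of its spots were, and was tested where this held on at least 3 arrays of 1 group. Tests used limma 3.58.1 in R 4.3.3 (lmFit and eBayes) on the 10 arrays of each comparison, with Benjamini-Hochberg adjustment over 36087, 32670 and 35704 probes. A gene is represented by its brightest probe over the 15 arrays. Its other probes are named where their call is another one. In place of a list test, counts and medians of the members stand beside those of all genes. The 40 genes, the lists and the rule for the genes named (Trp53, Cdkn1a and Mdm2 in every comparison, each differentially expressed member in its own, and further members as examples of their role) were set with earlier results of these data known. Of the symbols of the lists, 4 (9630033F20Rik, Pidd, Emr1 and Ly6g) were not matched on the array. Promoter windows came from RefSeq.

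On simulated data with 200 changed probes, 78, 83 and 67% of log2 changes of 2 were recovered in the 3 comparisons and 90, 93 and 82% of changes of 3, none in the wrong direction, and 9, 13 and 5 unchanged probes were called. The tumors of a group come from separate mice, except that mouse 3717 gave 2 p53f/f HCC. Pairing of HCC and ICC comes from the mouse number in the labels, and the deviations of the 4 pairs correlated at -0.143 to 0.065 (other pairs -0.262 to 0.283). Alternatives covered background correction, scaling, the filter, the probe rule, slide and row, the mouse as a block, the test and each tumor left out. The slides taken alone were added after seeing the data. No table column went unused for want of a sample.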

Additional observations from a re-analysis of the deposited data

Results flagged for a closer look

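Of 120 pairs of a gene and a group, 6 held a tumor whose gap to its nearest neighbour exceeded Dixon's 95% critical value for 5 samples, 0.71 of the range, and chance gives about 1 in 20 such pairs. Mdm2 stood at 4.21 in p53f/f HCC replicate 3, the others at 3.58 to 3.73. In p53f/f HCC replicate 4 the mitotic genes Gtse1 and Ckap2 stood at -2.91 and -4.61 (the latter not well above background), the others at -0.58 to 0 and at -1.52 to -0.70, and that tumor also had the lowest summed level of the mitotic genes repressed through DREAM, 6.95. Bbc3 stood at 1.2 in p53f/f HCC replicate 2, the others at 1.92 to 2.18. Xpc stood at -0.51 in ICC replicate 2, the others at 0.21 to 0.38. Ddit4 stood at 4.36 in p53LKO HCC replicate 5, the others at 3.19 to 3.50.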

How the results depend on the processing

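Changes of setting moved the counts of members over 2-fold as follows; the cause was not tested. In p53LKO HCC against p53f/f HCC, 7 lower became 13 (75th percentile of probes well above background), 4 (median scaling, spike-in scaling, a filter on every array, the methods' t-test), 12 (no fold limit), 2 (slide 1) and 1 (slide 2). None higher became 1 (quantile, no fold limit, mean of probes), 5 (median scaling) and 8 (spike-in). In ICC against p53LKO HCC, 4 lower became 7 (median scaling), 8 (no fold limit), 2 (mouse as a replicate block) and 0 (slide 1), and 10 higher became 6 (normexp, median scaling, row as a block) and 1 (slide 1). In ICC against p53f/f HCC, 6 lower became 2 (spike-in), 3 (slide as a block, Mann-Whitney test), 10 (no fold limit), 1 (slide 1) and 0 (slide 2), and 5 higher became 8 (spike-in, no filter), 3 (slide as a block) and 0 (either slide). Leaving out each tumor gave 4 to 8 lower and 0 to 2 higher in the HCC comparison (4 without p53f/f HCC replicate 4, 2 higher without replicate 5), 3 to 4 and 8 to 10 in ICC against p53LKO HCC, and 5 to 7 and 4 to 6 in ICC against p53f/f HCC. Differences that changed sign were those of Cdkn1a between the HCC groups (-0.01 quantile, -0.11 probes well above background, -0.15 mean of probes, -0.34 slide 1, and -0.11 to 0.34 leaving out a tumor), Trp53 in ICC against p53LKO HCC (-0.33 quantile and median scaling, -0.15 slide block, -0.84 slide 1, -0.17 to 0.30 leaving out a tumor), and in ICC against p53f/f HCC Mdm2 (0.01 median scaling, 0.50 spike-in), Bbc3 (0.08) and Sesn2 (0.10) under spike-in. No difference that passed the test changed sign, other than those of Bbc3 and Sesn2. Beyond these, 633 values of single genes kept direction and call under the other settings and 226 kept only the direction (461 and 63 when leaving out a tumor), and the replicate block by mouse changed the calls given in the report and no other. Dim probes limit Trp53, Psrc1, Apaf1, Ckap2 and Rrm2b.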
